A study of Mus musculus with 8 samples.

Results

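Serpins, Spink proteins and WAP domain (Wfdc) proteins are families of protease inhibitors, and their genes were followed in lungs of mice with altered beta-catenin. The members were the genes whose single annotated symbol begins with Serpin, Spink or Wfdc followed by the clade letter or number, and each gene was read from its brightest probe set. This gave 78 members of 19937 genes, of which 48 were serpins, 12 were Spink genes and 18 were Wfdc genes. Wfdc3 had 2 probe sets with a single symbol, and each other member had 1. Values of single arrays are given in the order of replicates 1 to 4.

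Total RNA of whole lung from 8 untreated mice was hybridised to 1 array per mouse at postnatal day 21. In 4 mice beta-catenin, the effector of canonical Wnt signalling, was labelled stabilized, and in the other 4 it was labelled knocked out. The labels record all mice as male and give neither the Cre driver, the altered exons nor the cells that carried the allele, and unmodified lungs were not analysed here. Every difference below is therefore stabilized minus knockout on the log2 scale, with no unmodified lung to set either group against.

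A serpin traps its protease: the enzyme cuts a loop that serves as bait, and the serpin then changes shape and locks the enzyme in an inactive complex. Serpins of clade A act mostly outside cells, those of clade B mostly inside them, and a few, such as the collagen chaperone Serpinh1, inhibit no protease at all. Spink proteins carry Kazal domains and Wfdc proteins carry WAP domains, which block serine proteases by plugging the active site, although many members have no known target. In the lung these inhibitors are known for holding neutrophil elastase and related enzymes in check, since uncontrolled elastase destroys alveolar walls.

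Array-wide checks bear on the members as follows. Beta-catenin transcript (Ctnnb1) lay between 10.92 and 11.14 on all arrays (difference 0.09 ± 0.06, SE, n = 4 per group, limma adjusted p = 0.42), which does not check the genotype labels because the altered exons are not given. The type 2 cell gene Sftpc lay between 13 and 13.29 and the type 1 cell gene Ager between 11.9 and 12.13, so the defining markers of lung were high on every array. Xist was high on 2 stabilized and 2 knockout arrays (at least 10.36) and low on the others (at most 4.62), so the recorded sex was not borne out on 4 arrays. Stabilized replicate 2 stood apart in liver markers: the albumin gene Alb, chosen after its values were seen, was at 8.08 there and between 4.09 and 4.64 on the other arrays, and 5 of 13 liver markers were highest on that array. Results that rest on this array are given with and without it.

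Most members were dim. Only 14 of 78 lay above the array median, which was 5.97 to 6.03, on all 8 arrays, against 53.2% of all genes; 61 lay below it on all arrays and 3 crossed it. The 14 were 9 serpins and 5 Wfdc genes, and no Spink gene was among them. With the median taken over named genes, 12 remained above it, and 46.2% of all genes did. A probe set's signal also depends on its probes, so the array median is a reference for brightness and not an order of transcript amounts.

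The member with the highest signal was Serping1, which encodes the C1 inhibitor of the complement and contact systems. It lay at 11.22, 11.37, 11.29 and 11.19 in stabilized lungs and at 11.17, 11.17, 11.21 and 11.14 in knockout lungs. The groups overlapped and the difference was 0.09 ± 0.06 (SE, limma adjusted p = 0.38). The other members at least 1 above the array median on average were Serpinb6b, Wfdc2, Serpina3n, Serpinb6a, Serpinb9, Serpinh1, Wfdc1 and Serpinf1. Wfdc11, Serpinb8, Wfdc10, Serpinb1a and Wfdc21 exceeded the median on every array by 0.85, 0.83, 0.7, 0.55 and 0.35 on average. Wfdc17 and Spink5 exceeded it on the 4 stabilized arrays only, and Serpind1, heparin cofactor II, on 6 arrays.

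**Figure D1:**
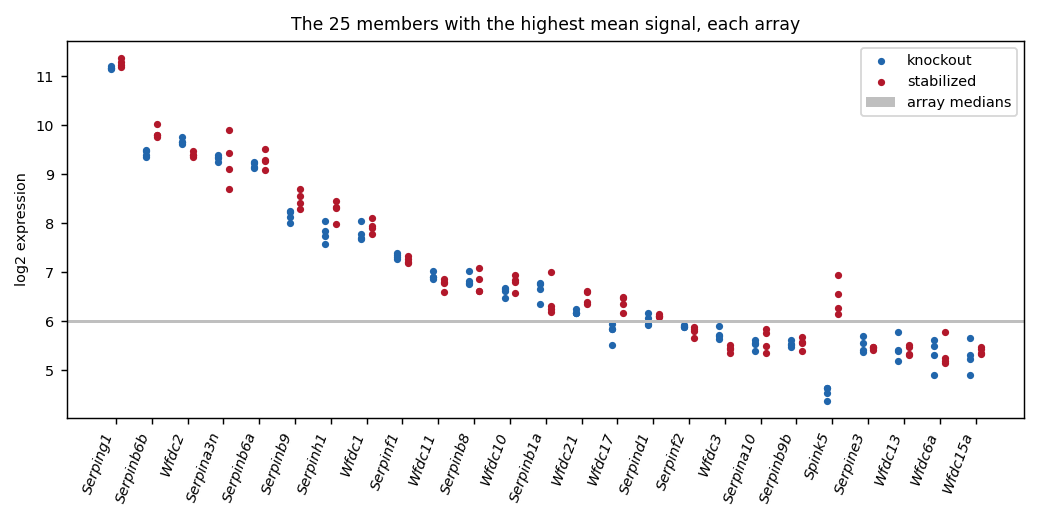
Log2 expression (vertical axis) of the 25 members with the highest mean signal, ordered from left to right, with 1 point per array (blue knockout, red stabilized, n = 4 each); the grey band marks the array medians of 5.97 to 6.03. Serping1 lies near 11, and Spink5 is the member whose groups stand farthest apart, on either side of the medians.

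Between the groups, 9 of 78 members passed the test, against 9.62% of all genes, so their share of 11.5% was close to the background. Of these, 6 were higher in stabilized lungs, where 4.65% of all genes were higher, and 3 were lower, where 4.96% of all genes were lower. The median difference was -0.03 over the members and -0.01 over all genes, and the groups did not overlap in 8 members, against 16.9% of all genes. By family, 3 serpins were higher and 1 lower of 48, 1 Spink gene was higher of 12, and 2 Wfdc genes were higher and 2 lower of 18. Of the 14 members above the median on all arrays 5 passed, against 11.5% of all genes at that brightness, and of the 61 below it on all arrays 2 passed, against 4.53%. Without stabilized replicate 1 or without knockout replicate 3, 5 members passed (6.41%), where 6.1% and 6.19% of all genes passed. Without stabilized replicate 2, 7 of the 9 passed together with Serpinb1a, a share of 10.3% against 7.48% of all genes. With each array centred on its median, 64.4% of all called genes were higher, against 48.4% without centring. In that fit 8 members passed (10.3%, against 11.6% of all genes), all of them among the 9.

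**Figure D2:**
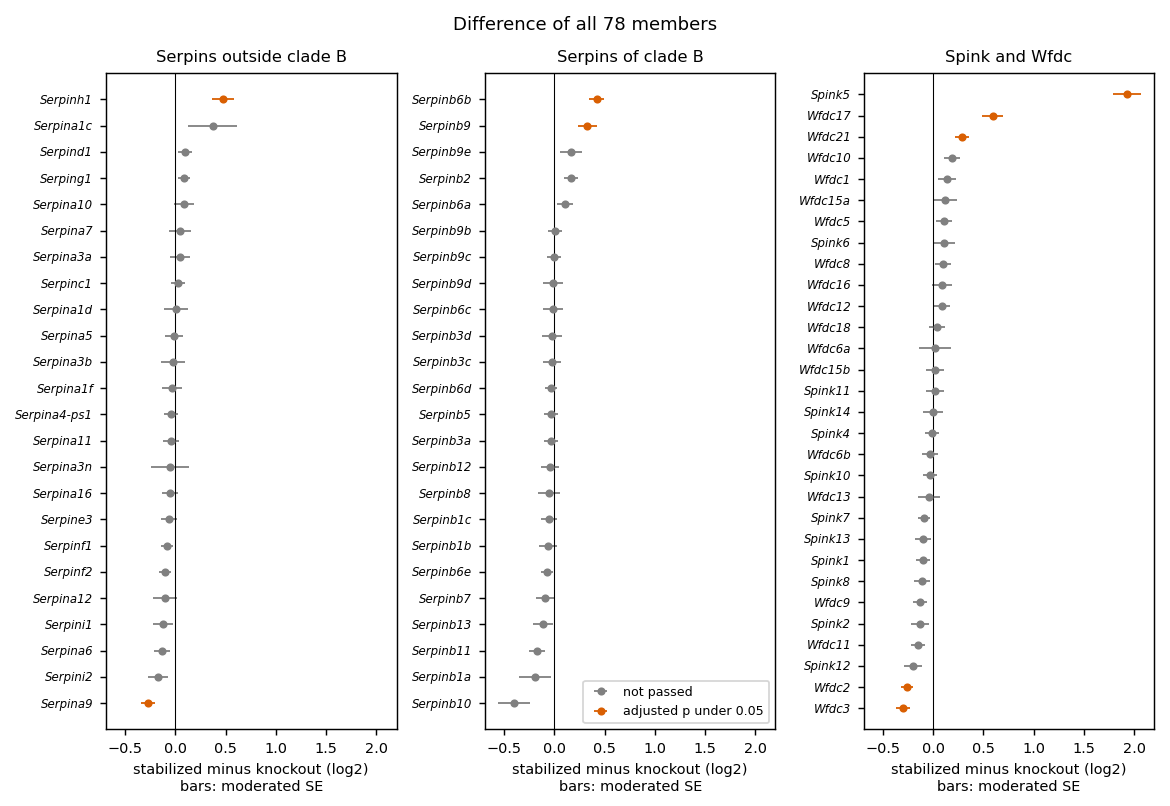
Difference in log2 expression, stabilized minus knockout (horizontal axis), of all 78 members in 3 panels of serpins outside clade B, serpins of clade B, and Spink with Wfdc genes; bars are moderated standard errors (n = 4 per group) and orange marks an adjusted p under 0.05. Most members lie close to 0, and Spink5 lies far to the right at 1.93.

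Spink5 differed most among the members and was bright only in stabilized lungs. It encodes a secreted protein of many Kazal domains that restrains kallikrein proteases of the skin and other stratified epithelia. On the log2 scale it lay at 6.55, 6.95, 6.27 and 6.16 in stabilized lungs and at 4.53, 4.65, 4.38 and 4.64 in knockout lungs. All stabilized arrays lay above their medians and all knockout arrays below them, with a wide gap between the groups. The transcript was 3.81-fold higher in stabilized lungs, at 6.48 ± 0.35 against 4.55 ± 0.12 (SD, n = 4), a difference of 1.93 ± 0.14 (SE, limma adjusted p = 5.7e-06). Only 2 of 19937 genes had a larger increase, since Spink5 ranked 3 from the top. Leaving out each array in turn gave differences of 1.77 to 2.04, and the call held in all 8 fits.

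No other Spink gene passed the test, and the remaining 11 lay below the array median on every array. Spink1, a trypsin inhibitor of the pancreas, was at 3.14 ± 0.11 and 3.24 ± 0.07 (SD, n = 4) in stabilized and knockout lungs. Spink12 had the next largest difference of the family at -0.2 ± 0.09 (SE, limma adjusted p = 0.19). The genes beside Spink5 on chromosome 18, Spink1, Spink14, Spink6, Spink12 and Spink11, differed by between -0.2 and 0.11.

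The epithelial proteases that Spink5 is known to restrain did not pass the test. The kallikrein genes Klk5, Klk7 and Klk14, chosen after their values were seen, differed by -0.21 ± 0.08, 0.01 ± 0.07 and 0.08 ± 0.06 (SE), and none passed (lowest limma adjusted p = 0.13). Markers of squamous epithelium, where Spink5 is best known, were low in both groups: limma called 0 of 13 (1 had an unadjusted p under 0.05), and their mean level was 4.46 to 4.56 in stabilized and 4.51 to 4.61 in knockout lungs. Of 10 basal cell markers 1 rose and 1 fell, where 9.62% of all genes passed, with mean levels of 6.42 to 6.6 and 6.49 to 6.56. The levels of both lists overlapped between the groups.

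**Figure D3:**
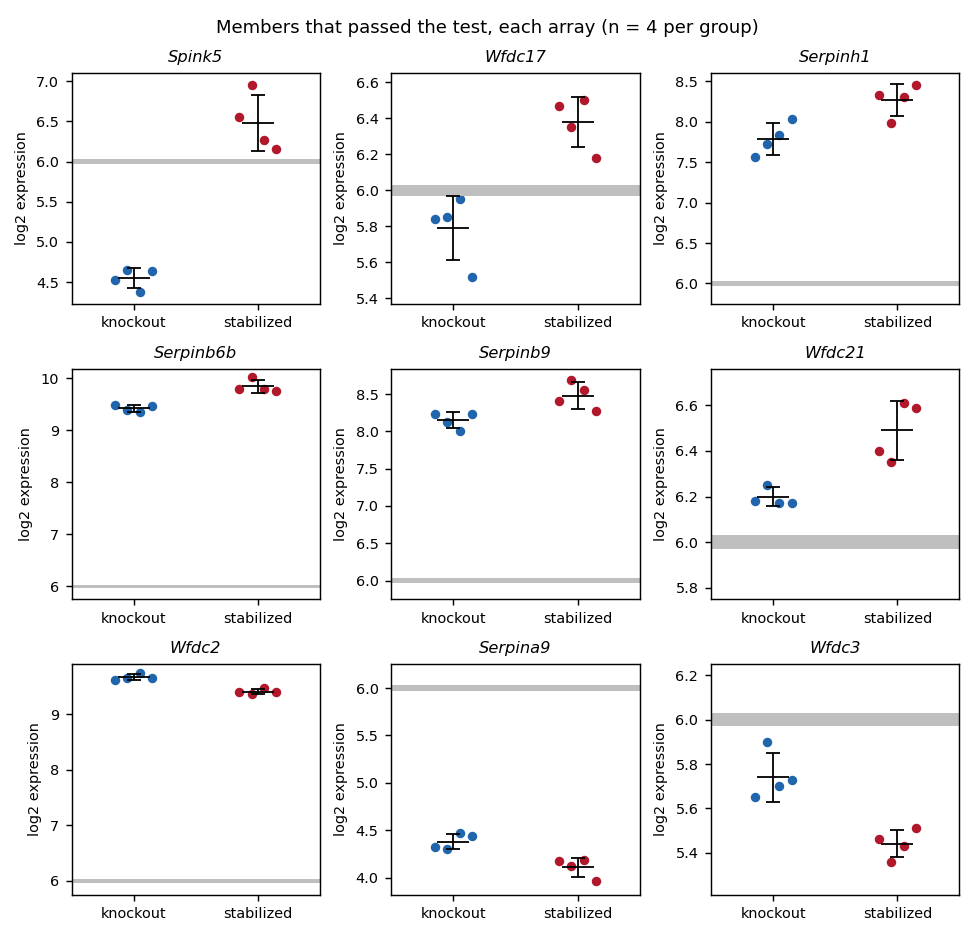
Log2 expression (vertical axis, a scale of its own in each panel) of the 9 members that passed the test, with 1 point per array, the group mean and SD in black (n = 4 per group) and the array medians as a grey band. The groups are separate in every panel but that of Serpinh1, where the lowest stabilized array (7.98) lies below the highest knockout array (8.04).

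WAP domain genes went both ways. Wfdc17, which encodes a WAP protein of activated macrophages and microglia, lay at 6.47, 6.35, 6.5 and 6.18 in stabilized lungs and at 5.84, 5.85, 5.95 and 5.52 in knockout lungs. The groups did not overlap, and the transcript was 1.5-fold higher in stabilized lungs (difference 0.59 ± 0.1, SE, limma adjusted p = 0.0025). The call held in all 8 fits that left out an array. Wfdc21 lay at 6.4, 6.35, 6.61 and 6.59 in stabilized and at 6.18, 6.25, 6.17 and 6.17 in knockout lungs. Its groups did not overlap either, and it was 0.29 ± 0.07 higher in stabilized lungs (SE, limma adjusted p = 0.027). That call was lost when stabilized replicate 3 or 4 was left out, or knockout replicate 1, 3 or 4 (highest limma adjusted p = 0.074), and in a fit over all probe sets (limma adjusted p = 0.07).

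In the RefSeq gene table of GRCm38.p6, Wfdc17, Wfdc18 and Wfdc21 are consecutive protein-coding genes on chromosome 11. The gene in the middle, Wfdc18, which encodes an extracellular proteinase inhibitor known from mammary gland, lay below the median on every array and differed by 0.04 ± 0.08 (SE, limma adjusted p = 0.81). Its mean was 4.35 ± 0.13 over the stabilized arrays and 4.32 ± 0.07 over the knockout arrays (SD, n = 4). Its groups overlapped, while those of both neighbours did not.

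The promoters of Wfdc17 and Wfdc18 are printed because these adjacent genes behaved differently, and those of Serpinb6b and Serpinb9, described further on, because these adjacent genes rose together. Each is the 250 bases before the annotated start, 5′ to 3′ on the gene's strand, from RefSeq on GRCm38.p6. Capitals mark a match to the core of the site bound by TCF/LEF factors, the partners of beta-catenin on DNA, searched on either strand as the letters CTTTGAT, as the letters CTTTGTT, as the letters CTTTGAA and as the letters CTTTGTA. The windows are chr11:83703806-83704055 (+) for Wfdc17, chr11:83708754-83709003 (+) for Wfdc18, chr13:32965011-32965260 (+) for Serpinb6b and chr13:33004291-33004540 (+) for Serpinb9.
Wfdc17: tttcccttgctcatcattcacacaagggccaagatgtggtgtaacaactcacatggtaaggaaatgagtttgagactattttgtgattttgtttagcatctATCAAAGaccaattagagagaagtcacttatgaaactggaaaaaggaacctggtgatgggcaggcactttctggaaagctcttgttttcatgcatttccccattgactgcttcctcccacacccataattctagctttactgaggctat
Wfdc18: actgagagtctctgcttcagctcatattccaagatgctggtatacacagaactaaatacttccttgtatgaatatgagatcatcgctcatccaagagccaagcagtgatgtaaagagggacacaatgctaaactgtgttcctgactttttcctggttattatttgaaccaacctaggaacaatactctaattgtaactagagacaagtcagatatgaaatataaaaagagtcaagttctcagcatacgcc
Serpinb6b: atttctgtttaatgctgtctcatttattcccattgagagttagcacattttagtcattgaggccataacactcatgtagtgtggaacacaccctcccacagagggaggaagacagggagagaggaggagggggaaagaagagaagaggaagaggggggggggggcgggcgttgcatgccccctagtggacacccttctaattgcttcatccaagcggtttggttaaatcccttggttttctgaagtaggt
Serpinb9: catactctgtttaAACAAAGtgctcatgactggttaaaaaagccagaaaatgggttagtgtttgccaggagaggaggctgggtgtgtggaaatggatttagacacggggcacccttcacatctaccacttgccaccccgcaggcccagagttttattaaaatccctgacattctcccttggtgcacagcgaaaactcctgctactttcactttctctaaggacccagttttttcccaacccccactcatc
Wfdc17 had 1 match, read as ATCAAAG from 149 bases before the start, and Serpinb9 had 1, read as AACAAAG from 237 bases before it. Wfdc18 and Serpinb6b had 0, as had the windows of Serpinh1, Wfdc2 and Wfdc3. Spink5, Wfdc21 and Serpina9, which also passed the test, had no window and were not searched. Over windows of 300 bases, which reach 50 bases past the start, 16.9% of 32851 windows of all genes held such a match, as did 19 of the 69 windows of 56 members. A match of these letters is a description of the sequence and does not show that a factor binds there.

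Some markers of myeloid cells rose in the same lungs as Wfdc17. Of 14 macrophage markers 4 rose, 0 fell and 10 did not pass, where 4.65% of all genes rose, and their mean level was 7.44 to 7.57 in stabilized and 7.2 to 7.32 in knockout lungs. C1qa, a complement subunit made by macrophages, rose by 0.59 ± 0.08 (SE, limma adjusted p = 8.7e-04). Among 18 markers of neutrophils and monocytes, 12 did not pass, 5 rose and 1, Ltf, fell, at 6.05 to 6.19 against 5.82 to 5.92. Their part in the rise of Wfdc17 was not tested, and in whole lung more cells of a type and more RNA per cell, or fewer and less where a gene fell, cannot be told apart.

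Wfdc2, a secreted WAP protein made by airway epithelium, was lower in stabilized lungs and was the only bright member to fall. It lay at 9.4, 9.36, 9.48 and 9.4 in stabilized lungs and at 9.61, 9.66, 9.75 and 9.66 in knockout lungs. The groups did not overlap, but the difference was small at -0.26 ± 0.06 (SE, 1.2-fold, limma adjusted p = 0.018). The call was lost without stabilized replicate 1 or knockout replicate 3 (highest limma adjusted p = 0.064). Airway markers fell in the same lungs, where 4.96% of all genes fell. Of 20 club cell markers 16 fell, with a list median of -0.69. Their mean levels were 7.83 to 8.21 in stabilized against 8.77 to 9.16 in knockout lungs. Of 25 ciliated cell markers 21 fell, with a median of -0.7 and mean levels of 5.5 to 5.67 against 6.22 to 6.32. Markers of alveolar type 2 cells went the other way: 12 of 19 rose and 1 fell, at 11.09 to 11.24 against 10.88 to 11.01. The part of these lists in the fall of Wfdc2 was not tested.

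Wfdc3 also fell but was dim. Its brighter probe set lay at 5.46, 5.36, 5.43 and 5.51 in stabilized and at 5.65, 5.9, 5.7 and 5.73 in knockout lungs, below the median on every array. The difference was -0.3 ± 0.07 (SE, limma adjusted p = 0.018) and the groups did not overlap, with the call lost without knockout replicate 2 (limma adjusted p = 0.054). In a fit over all probe sets neither probe set of Wfdc3 passed: the brighter had a limma adjusted p of 0.051, and the dimmer differed by -0.13 ± 0.06 (SE, limma adjusted p = 0.29). Of the 14 Wfdc genes in the cluster on chromosome 2, Wfdc2 and Wfdc3 were those that passed.

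The 14 Wfdc genes that did not pass ranged in difference from -0.15 for Wfdc11 to 0.19 for Wfdc10. Wfdc10 lay between 6.47 and 6.95 on all arrays (limma adjusted p = 0.19) and Wfdc11 between 6.6 and 7.02 (limma adjusted p = 0.22). Wfdc1, a WAP protein of stromal cells, lay at 7.94 ± 0.13 and 7.8 ± 0.17 (SD, n = 4) in stabilized and knockout lungs, a difference of 0.14 ± 0.09 (SE, limma adjusted p = 0.38). Slpi, the secretory leukocyte protease inhibitor, has WAP domains but not the family's name: it lay between 5.79 and 6.28 in stabilized and between 5.56 and 5.99 in knockout lungs (difference 0.3 ± 0.12, SE, limma adjusted p = 0.15).

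**Figure D4:**
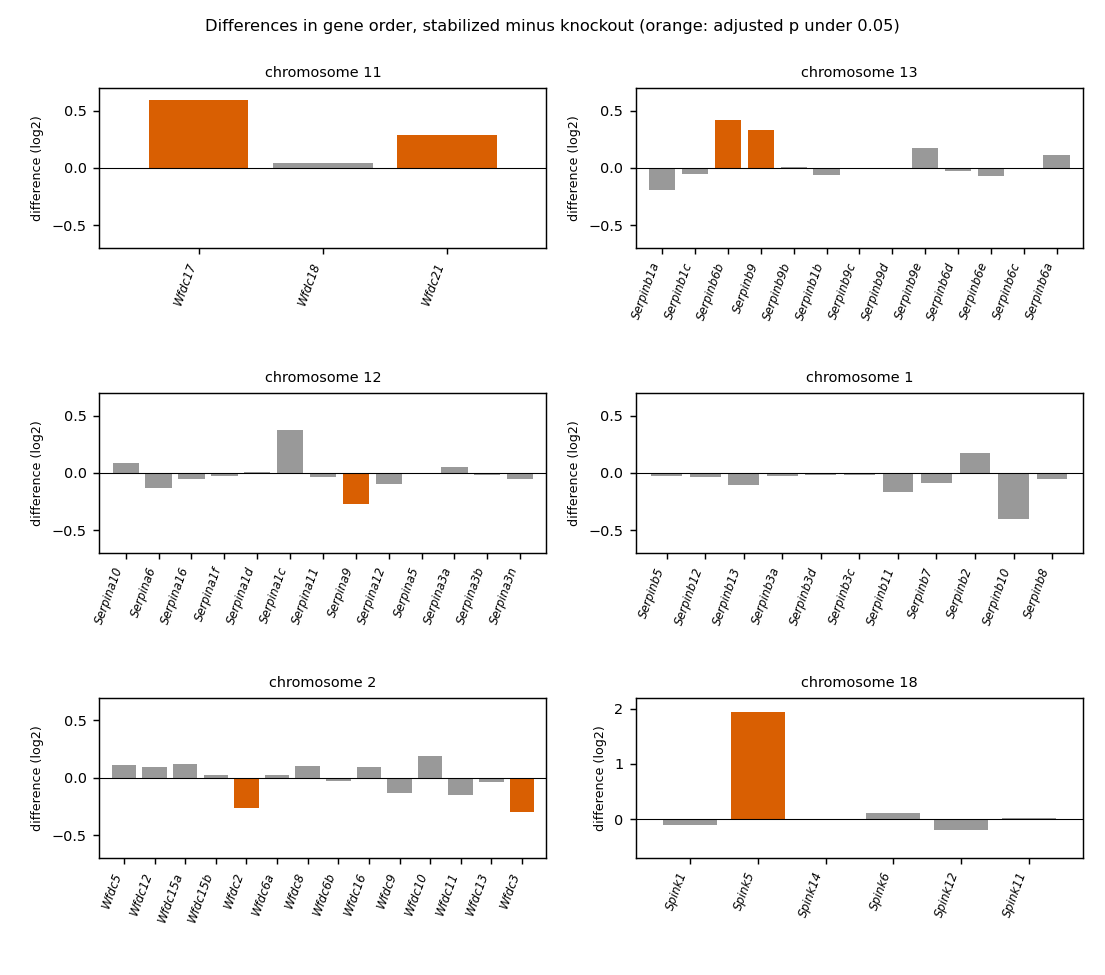
Difference in log2 expression, stabilized minus knockout (bars), of members in gene order within 6 clusters, in which no gap between members exceeds 20 protein-coding genes; distances are not to scale, and the chromosome 18 panel has a taller axis. Orange marks an adjusted p under 0.05: the pairs Serpinb6b with Serpinb9 and Wfdc17 with Wfdc21 stand out from their neighbours, and Spink5 stands alone.

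Among the intracellular serpins of clade B, Serpinb6b and Serpinb9, adjacent genes on chromosome 13, rose. Of 24 clade B genes 2 rose, 0 fell and 22 did not pass, so their share of 8.33% was close to the 9.62% of all genes. Above the median on all arrays lay 5 of the 24, against 53.2% of all genes. Serpinb6b, a mouse relative of the human cathepsin G inhibitor SERPINB6, lay at 9.8, 10.03, 9.8 and 9.76 in stabilized and at 9.49, 9.39, 9.34 and 9.47 in knockout lungs. The groups did not overlap, and it was 1.34-fold higher in stabilized lungs (difference 0.42 ± 0.07, SE, limma adjusted p = 0.0032). The call held in all 8 fits that left out an array, at 0.36 to 0.45.

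Serpinb9, which protects cells from the granzyme B of cytotoxic lymphocytes, lay at 8.41, 8.69, 8.55 and 8.28 in stabilized and at 8.24, 8.12, 8.01 and 8.23 in knockout lungs. The groups came within a few hundredths of each other without overlapping, and the difference was 0.33 ± 0.09 (SE, 1.26-fold, limma adjusted p = 0.038). Its adjusted p was the highest of the 9 members that passed, and the call was lost when stabilized replicate 1, 2 or 3 was left out, or knockout replicate 2 or 3 (highest limma adjusted p = 0.11). It was also lost after repeated quantile normalization and with the replicate number as a block (limma adjusted p = 0.065 in each), and in the fit over all probe sets (limma adjusted p = 0.1). Most lymphocyte markers fell in the same lungs. Of 16 T and NK cell markers 13 fell, where 4.96% of all genes fell. Their mean levels were 5.9 to 6.13 in stabilized against 6.54 to 7.16 in knockout lungs. Granzyme B itself (Gzmb) lay between 5.12 and 6.29 in stabilized and between 5.94 and 8.05 in knockout lungs and did not pass (difference -0.88 ± 0.39, SE, limma adjusted p = 0.19).

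Other bright clade B genes did not pass. Serpinb6a, the closest counterpart of human SERPINB6, lay at 9.28 ± 0.17 and 9.18 ± 0.06 (SD, n = 4), a difference of 0.11 ± 0.08 (SE, limma adjusted p = 0.48). Whether probes tell apart close copies such as Serpinb6a and Serpinb6b was not tested. Serpinb8 lay between 6.61 and 7.09 on all arrays. Serpinb1a, an inhibitor of neutrophil elastase and cathepsin G, lay at 6.31, 7, 6.26 and 6.2 in stabilized and at 6.78, 6.76, 6.65 and 6.36 in knockout lungs. Stabilized replicate 2, the array with the high albumin signal, was the highest of all 8 for this gene. With it the difference was -0.19 ± 0.16 (SE, limma adjusted p = 0.49), and without it -0.38 (limma adjusted p = 0.044).

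Serpinb10, a serpin of blood cells, had the largest negative difference of any member at -0.4 ± 0.16 (SE) and did not pass (limma adjusted p = 0.15). It lay at 4.65, 4.78, 4.21 and 4.26 in stabilized and at 5.11, 5.14, 4.8 and 4.44 in knockout lungs, below the median throughout. The groups overlapped through knockout replicate 4, and without that array the difference was -0.54 (limma adjusted p = 0.036). It belongs to the cluster of 11 clade B members on chromosome 1, of which limma called 0 (2 had an unadjusted p under 0.05) and only Serpinb8 lay above the median. None of the 6 measured members named Serpinb9 with a letter or Serpinb1b or Serpinb1c exceeded the median on any array.

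Clade A, which holds the antitrypsin family, lay below the array median apart from Serpina3n. Of 15 genes 0 rose and 1 fell, a share of 6.67% against 9.62% of all genes. Below the median on all arrays lay 14 of the 15, and 7746 of all 19937 genes. Serpina3n, an acute phase inhibitor of serine proteases, lay at 9.11, 9.43, 9.9 and 8.7 in stabilized and at 9.33, 9.25, 9.36 and 9.4 in knockout lungs. The groups overlapped (difference -0.05 ± 0.19, SE, limma adjusted p = 0.9), and the stabilized arrays spread over more than 1 on the log2 scale, with an SD of 0.51 against 0.06 in knockout lungs. The sign of this difference turned without stabilized replicate 1 or 4.

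Serpina9, a serpin of germinal centre B cells, was the clade A gene that fell. It lay at 4.18, 4.12, 4.19 and 3.97 in stabilized and at 4.32, 4.3, 4.47 and 4.44 in knockout lungs, all well below the median. The groups did not overlap and the difference was -0.27 ± 0.07 (SE, limma adjusted p = 0.034). The call was lost without stabilized replicate 1, 2 or 4 or knockout replicate 3 or 4 (highest limma adjusted p = 0.1), and after repeated quantile normalization or centring of the arrays, with the replicate number as a block and in the fit over all probe sets (limma adjusted p = 0.059, 0.063, 0.057 and 0.083). B and plasma cell markers fell in the same lungs, 13 of 14, where 4.96% of all genes fell. Their mean levels were 5.44 to 5.51 in stabilized against 6.22 to 6.53 in knockout lungs. Their part in the value of Serpina9 was not tested.

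Antitrypsin itself, the product of the Serpina1 genes, could be read only in part. Serpina1c and Serpina1d had probe sets of their own, both below the median on all arrays, and Serpina1a, Serpina1b and Serpina1e were not analysed here as single genes. Serpina1c lay at 3.54, 4.57, 3.54 and 3.23 in stabilized and at 3.45, 3.61, 3.52 and 2.85 in knockout lungs. Its difference of 0.37 ± 0.24 (SE, limma adjusted p = 0.39) fell to 0.08 without stabilized replicate 2, the array in which albumin was high. Serpina1d differed by 0.01 ± 0.12 (SE).

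A probe set annotated to Serpina1a to Serpina1e together, which the choice of members left out and which was chosen after its values were seen, differed between the groups. It lay at 6.31, 6.22, 5.96 and 6.34 in stabilized and at 5.58, 5.44, 5.66 and 5.45 in knockout lungs. The groups did not overlap, and in a fit over all 34760 probe sets it was 1.6-fold higher in stabilized lungs (difference 0.68 ± 0.1, SE, limma adjusted p = 0.0062). Without stabilized replicate 2 the difference was 0.67 (limma adjusted p = 0.022). The other joint probe set of these genes was dimmer, at 4.19 ± 0.16 against 3.85 ± 0.12 (SD, n = 4), and did not pass (difference 0.34 ± 0.1, SE, limma adjusted p = 0.096). Of the 13 liver markers 1 rose, with and without that array.

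Among the serpins of coagulation, fibrinolysis and complement, limma called 0 of 5, and 0 had an unadjusted p under 0.05. Serpinc1, antithrombin, lay at 4.4 ± 0.09 and 4.37 ± 0.08 (SD, n = 4), and Serpind1 at 6.12 ± 0.03 and 6.02 ± 0.12. Serpinf2, the main inhibitor of plasmin, lay between 5.66 and 5.92 on all arrays and Serpine3 between 5.37 and 5.7. Serpinf1, an antiangiogenic serpin without inhibitory activity, lay at 7.25 ± 0.06 and 7.33 ± 0.05 (SD, n = 4; difference -0.08 ± 0.06, SE, limma adjusted p = 0.46), and Serpini1, neuroserpin, at 4.33 ± 0.23 and 4.45 ± 0.07.

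Serpinh1, the chaperone that folds collagen in the endoplasmic reticulum, rose. It lay at 8.33, 7.98, 8.31 and 8.45 in stabilized and at 7.57, 7.73, 7.84 and 8.04 in knockout lungs. The groups overlapped, since stabilized replicate 2 lay below knockout replicate 4, and the difference was 0.47 ± 0.11 (SE, 1.39-fold, limma adjusted p = 0.02). Without stabilized replicate 2 the groups did not overlap and the difference was 0.57 (limma adjusted p = 0.0075). The call was lost when stabilized replicate 1 or 4 was left out, or knockout replicate 1 or 2 (highest limma adjusted p = 0.062). It was also lost in the fit over all probe sets (limma adjusted p = 0.076).

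Of 20 genes for collagens and the enzymes that process them, 5 rose and 0 fell beside Serpinh1, where 4.65% of all genes rose. The list's median was 0.2 against -0.01 over all genes. The list was bright, with 19 genes above the median on all 8 arrays. Of the 10609 genes that were as bright by this measure, 778 rose and 438 fell, with a median of 0.04. Col5a2, a fibrillar collagen chain, rose by 0.3 ± 0.06, and P4ha1, a prolyl hydroxylase subunit, rose by 0.39 ± 0.08 (SE, n = 4 per group). Ppib, a prolyl isomerase of the same folding complex, rose by 0.25 ± 0.06 (SE), a call lost without stabilized replicate 1 or knockout replicate 2 or 3. Col4a2, a basement membrane chain, rose by 0.24 ± 0.07 (SE), and passed in only 1 of the 8 fits without an array. The main collagen chains did not pass: Col1a1 differed by -0.16 ± 0.11 and Col3a1 by 0.2 ± 0.06 (SE, limma adjusted p = 0.39 and 0.067), both chosen after their values were seen. The number of list genes that rose was 2 to 6 over these 8 fits, lowest without stabilized replicate 1 or knockout replicate 2 or 3. Of 15 fibroblast markers 5 rose, at mean levels of 9.96 to 10.1 in stabilized against 9.76 to 9.86 in knockout lungs. Mesothelial markers rose as well, 5 of 13, at 7.63 to 7.72 against 7.37 to 7.47. The part of either list in the rise of Serpinh1 was not tested.

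Of 98 measured proteases of the classes that these inhibitors are known to target, 7 rose and 3 fell, a share of 10.2% that was close to the 9.62% of all genes. Serine proteases of neutrophil granules, mast cells and pancreas lay below the median on all arrays, and limma called 0 of 4, 0 of 9 and 0 of 12, with 0, 1 and 1 at an unadjusted p under 0.05. Neutrophil elastase (Elane) lay at 4.63 ± 0.17 and 4.73 ± 0.13 (SD, n = 4). Of 10 granzymes Gzma fell, by 1 ± 0.19 (SE, limma adjusted p = 0.0061). Of 34 epithelial and membrane serine proteases Corin, which activates natriuretic peptides, rose by 0.47 ± 0.09 (SE, limma adjusted p = 0.0046).

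Of 18 proteases of coagulation, fibrinolysis and complement, the clotting factors F10 and F7 rose, by 0.4 ± 0.06 and 0.33 ± 0.07 (SE, limma adjusted p = 0.0015 and 0.015), the latter not without stabilized replicate 1 or knockout replicate 3. The plasminogen activators Plau and Plat differed by 0.11 ± 0.1 and 0.02 ± 0.11 (SE) and did not pass. Some clade B serpins inhibit cysteine proteases, and of a list of 11, the cathepsins and legumain (Lgmn), 4 rose and 2 fell, with a median of 0.11, against 9.62% of all genes called and a median of -0.01. Ctsc, which activates granule proteases, rose by 0.41 ± 0.07, Lgmn by 0.35 ± 0.06 and Ctsk, which is also in the macrophage list, by 0.75 ± 0.15, while Ctsf fell by 0.56 ± 0.12 (SE, n = 4 per group).

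Other inhibitors and serpin partners changed singly, where 9.62% of all genes passed. Of 32 serine protease inhibitors outside the families, Spock2 and App, whose products carry inhibitor domains, rose by 0.33 ± 0.06 and 0.25 ± 0.06, while Itih2 and Itih5, of the family of inter-alpha-trypsin inhibitor heavy chains, fell by 0.54 ± 0.08 and 0.21 ± 0.06 (SE). Over the 8 fits without an array, App failed the test in 4 and Itih5 in 8. Of 19 cystatins, stefins and TIMPs, Cst7, a cystatin of immune cells, fell by 0.53 ± 0.11 and Timp1 rose by 0.46 ± 0.13 (SE), and Timp1 passed in only 1 of these fits. Of 15 receptors and cofactors the endocytic receptor Lrp2, which takes up protease and inhibitor complexes, rose 2.01-fold, from 8.83 ± 0.22 to 9.84 ± 0.06 (SD, n = 4; limma adjusted p = 3.9e-05), while Lrp1, the main receptor of such complexes, lay at 10.39 ± 0.06 and 10.35 ± 0.03.

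**Figure D5:**
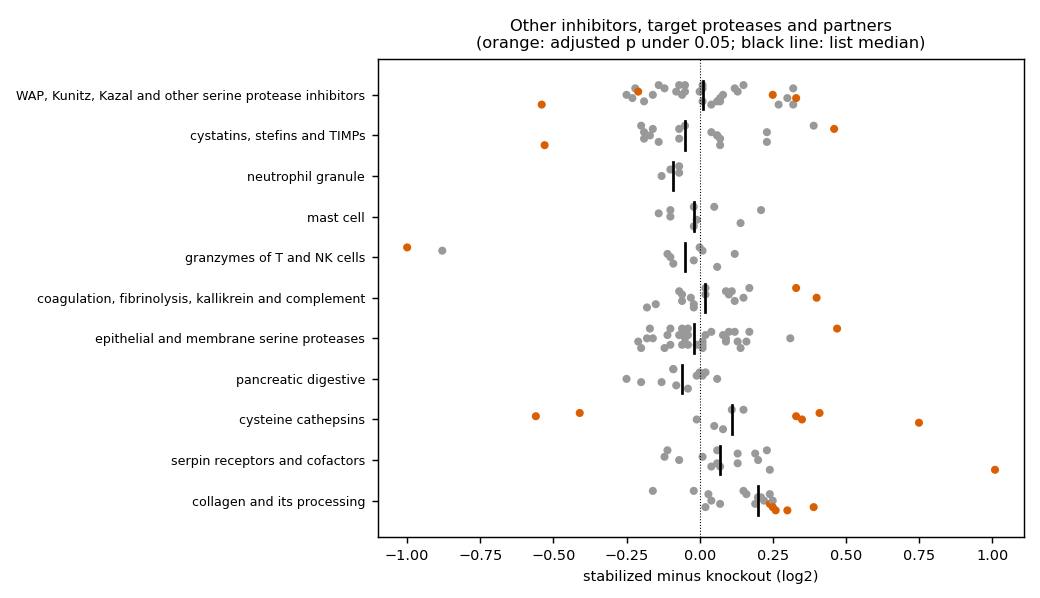
Difference in log2 expression, stabilized minus knockout (horizontal axis), of single genes (points) in lists of other inhibitors, target proteases and partners of the members; orange marks an adjusted p under 0.05 and the black line is the list's median. The list of cathepsins with legumain and the collagen list hold the most orange points, while neutrophil, mast cell and pancreatic proteases hold none.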

How the data were processed

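Total RNA of 8 whole lungs was measured on 1 Affymetrix array each. The authors deposited log2 values per probe set, and the submitters' processing notes name RMA and affy; no columns were left out. Of 34760 probe sets, 21640 carried 1 gene symbol in the platform annotation, 1321 several and 11799 none; the latter 2 kinds were left out, and the brightest probe set stood for each of 19937 genes. Groups came from the labels (4 against 4). Differences were tested over all genes with lmFit and eBayes of limma 3.58.1 in R 4.3.3, tested on simulated data beforehand, with Benjamini-Hochberg adjustment and a threshold of 0.05; "passed", "rose" and "fell" refer to this test. The number of arrays limits the precision. The p-values weigh each difference against the spread between these mice, which limma moderates by the spread over all genes.

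The members and the gene lists were chosen with earlier results of these data known. Named were all members that passed, a chosen list of members, the 5 others with the largest differences, the 10 brightest, and up to 4 passing genes per other list. Some further names are marked as chosen later, while others, such as Lrp1, Serpine3 and Serpinb8, carry no such mark. Probes may not separate close copies. Alternatives were repeated quantile normalization, centring, averaged probe sets, only genes above the median, trend with robust variances, Xist as a covariate, a replicate block and leaving out each array. A fit over all probe sets was added after seeing the data. Promoters were from RefSeq (GRCm38.p6). All 78 members were found in its gene table by symbol or identifier, but only 56 had a promoter window.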

Additional observations from a re-analysis of the deposited data

Results flagged for a closer look

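In 10 of the 156 groups of 4 arrays (78 members in each genotype), or 6.41%, 1 array lay far from the other 3, where chance gives about 5%. Among the bright members, Serpinb1a was at 7 in stabilized replicate 2 and between 6.2 and 6.31 on the other stabilized arrays, and Serpinb6b was at 10.03 on the same array against 9.76 to 9.8. Wfdc21 was at 6.25 in knockout replicate 2 against 6.17 to 6.18. Among the dim members, Wfdc6a was at 5.79 in stabilized replicate 1 against 5.16 to 5.26, and Spink11 at 3.01 in stabilized replicate 4 against 2.61 to 2.64. Spink2 was at 4.66 in stabilized replicate 2 against 4.9 to 4.94, Spink4 at 5.01 in stabilized replicate 3 against 5.17 to 5.2, and Wfdc9 at 4.14 in stabilized replicate 3 against 4.08 to 4.09. In knockout lungs, Wfdc18 was at 4.21 in replicate 4 against 4.34 to 4.35, and Wfdc5 at 4.84 in replicate 1 against 5 to 5.02. Stabilized replicate 2, which also stood apart in albumin, held 3 of the 10.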

How the results depend on the processing

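The number of members that passed was 9. It was 7 to 9 under repeated quantile normalization, centring, averaged probe sets, trend with robust variances and Xist as a covariate. Under these settings 8.61% to 11.6% of all genes passed. Repeated quantile normalization left 2 serpins of 4. With only genes above the median tested, which leaves 16 members, 6 passed (37.5%), against 16.1% of the 11410 genes tested. This filter used the mean of all 8 arrays, and Wfdc17, among the 6, exceeded the median on the 4 stabilized arrays only. The filter was therefore not independent of the tested difference, and no conclusion is drawn from this share. Of the 6, 1 was lower, and 0 were Spink genes, since Spink5 was not tested. In the fit over all probe sets, chosen after seeing the data, 4 members passed (5.13%), against 4.42% of all probe sets. Of these members 3 were higher and 1 lower, with 1 serpin and 2 Wfdc genes. Serpina9, Serpinb9, Serpinh1, Wfdc21 and Wfdc3 did not pass, and the cause was not tested. Leaving out each array in turn gave 5 to 8 members, where 6.1% to 9.22% of all genes passed. Of these members 4 to 5 were higher and 1 to 3 lower, with 1 to 4 serpins and 2 to 4 Wfdc genes. Of the other lists 13 to 21 genes passed (22 with all arrays), and 14 members stayed above the array median in number.

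Same-numbered arrays did not deviate together (correlations 0.08, 0.07, -0.01 and 0.02), so the numbers were not taken as pairs. With the replicate number as a block, 8 members passed (5 higher, 3 lower), 7 of them among the 9, where 9.17% of all genes passed. Serpina9 and Serpinb9 were lost and Serpinb10 passed (limma adjusted p = 0.014).

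Signs turned only in members that had not passed: leaving out each array in turn gave -0.26 to 0.14 for Serpina3n, -0.01 to 0.06 for Serpinc1 and -0.01 to 0.09 for Wfdc18. Serpina1d lay at -0.01 without stabilized replicate 1, -0.09 without stabilized replicate 4 and -0.09 without knockout replicate 4, Serpina3n at 0.01 and 0.14 without stabilized replicates 1 and 4, Wfdc18 at -0.01 without stabilized replicate 3, and Serpinc1 at -0.01 without knockout replicate 4. Of 420 refitted differences of 27 members, 378 kept direction and side of the threshold, 32 no longer passed, 3 newly passed and 7 turned sign; the causes were not tested.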
